A study of Caenorhabditis elegans with 36 samples.

Results

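The data compared here are the untreated controls of the C. elegans strains BY273 and N2 at adult day 3. They comprise 3 BY273 and 3 N2 libraries out of 36, taken by their labels for strain, treatment and age. The whole study measured RNA of entire worms by sequencing in 12 groups of 3 libraries, which cross both strains with growth with or without krill oil and with adult day 1, 3 and 6. BY273 carries an integrated transgene in which the promoter of dat-1, the dopamine transporter gene, drives GFP and human α-synuclein in dopaminergic neurons, and the study calls these worms PD animals. N2 is the wild type laboratory strain. All 6 libraries came from hermaphrodites that grew on E. coli OP50 at 20°C on plates without FdUrd, the drug that blocks offspring, and that were rinsed and passed through a nylon net each day after adult day 2. Neither group received krill oil.

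In the worm a handful of ciliated sensory neurons make dopamine, and α-synuclein put into them by the dat-1 promoter is a widely used model of Parkinson's disease. RNA of an entire adult comes mostly from gonad, intestine, epidermis and muscle, so a change confined to a few neurons forms a small share of the reads. Strains that were kept apart can also differ at other places in the genome than the transgene, and groups that reach a given hour at a slightly different stage of egg production or with different numbers of offspring on the plate differ in germline, cuticle and embryo RNA. In such bulk samples, fewer cells of a type and less RNA per cell cannot be told apart.

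The 6 libraries held 22263173 to 34605080 counts, and 6.81% to 9.78% of these fell on ribosomal RNA genes. That share was higher in replicate 3 of both strains (9.78% in BY273 and 9.70% in N2) than in the other 4 libraries, where it was at most 7.12%. Pearson correlations of log2 CPM (counts scaled to a common library size) across genes were 0.992 to 0.994 between BY273 libraries and 0.993 to 0.995 between N2 libraries, against 0.979 to 0.987 for pairs of 1 library of each strain. The study calls its replicates biological and the labels do not say whether they are separate cultures, so all p-values measure the spread between these libraries. The counts hold no GFP and no human α-synuclein row, and these transcripts were not analysed here.

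Since the transgene was not analysed here, the strain labels were checked with genes that separate the strains elsewhere in the series, a check chosen after the data were seen. In the 18 libraries of day 1 and of day 3 on krill oil, 99 genes were higher and 106 lower in all 9 BY273 libraries than in all 9 N2 libraries. Of these 205 genes 171 were tested in the day 3 controls, where 135 (78.9%) passed the test in the same direction, 6 in the opposite direction, and 30 did not pass. The background share of genes past the same test in either direction was 38.7%. For the 17 of them with at least 5 CPM in 1 strain and a difference of at least 2-fold, the median position of a library on a scale from the N2 mean (0%) to the BY273 mean (100%) was 120%, 106% and 122.6% in the BY273 day 3 controls, against 1.49%, 0% and 19.7% in the N2 day 3 controls. The third N2 library thus lay between the strains, nearer to N2, and the counts over all genes are also given without it. At day 6 the labels and these genes went against each other. The libraries labelled BY273 at day 6 lay at 1.24% to 4.98% (controls) and 0% to 7.02% (krill oil), and the libraries labelled N2 at 92.6% to 98.6% and 99.6% to 100.1%. No gene separated all 18 libraries labelled BY273 from all 18 labelled N2. The day 6 libraries are therefore used here only as labelled, and no direction between the strains is drawn from them.

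At day 3, 659 genes were higher and 174 lower in BY273 than in N2 controls among 14423 genes tested (edgeR quasi-likelihood test, Benjamini-Hochberg adjusted p under 0.05 and a log2 fold change beyond 1 in either direction, called DEGs below). These are 4.57% and 1.21% of the genes tested, 5.78% together. Without N2 replicate 3 the counts were 620 higher and 186 lower. Without the fold limit 3226 genes (22.4%) were higher in BY273 and 2355 (16.3%) were lower (3058 and 2995 without N2 replicate 3), and the median log2 fold change over all genes was 0.05. The balance of these small differences changed with the scaling: DESeq2 gave 1969 higher and 2906 lower, and edgeR with median-of-ratios (RLE) size factors 2959 higher and 3186 lower. Without BY273 replicate 1 the lower genes numbered 1482, and without BY273 replicate 3 they numbered 1462.

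Most DEGs were weakly expressed. Only 136 of the 659 higher and 15 of the 174 lower DEGs had a mean of at least 5 CPM, and the median absolute log2 fold change of DEGs was 1.31. The libraries of the strains did not overlap for 824 of the 833 DEGs, where 51.8% of all genes tested did not overlap. Level and direction went together. Among genes with a mean of 1 to 5 CPM, 1067 of 3466 (30.8%) were higher and 96 (2.77%) lower. Among genes with a mean of at least 50 CPM, 396 of 3778 (10.5%) were higher and 1343 (35.5%) lower. The X chromosome, whose genes are largely silent in the germline, stood apart from the autosomes in the same table: 603 of its 2085 tested genes (28.9%) were higher and 136 (6.52%) lower, against 2612 (21.3%) and 2218 (18.1%) of 12283 autosomal genes. With RLE size factors the X shares were 26.5% and 8.11%, and the autosomal ones 19.5% and 24.5%. Without N2 replicate 3 the X shares were 26.6% and 7.81%, and the autosomal ones 19.7% and 22.5%.

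**Figure D1:**
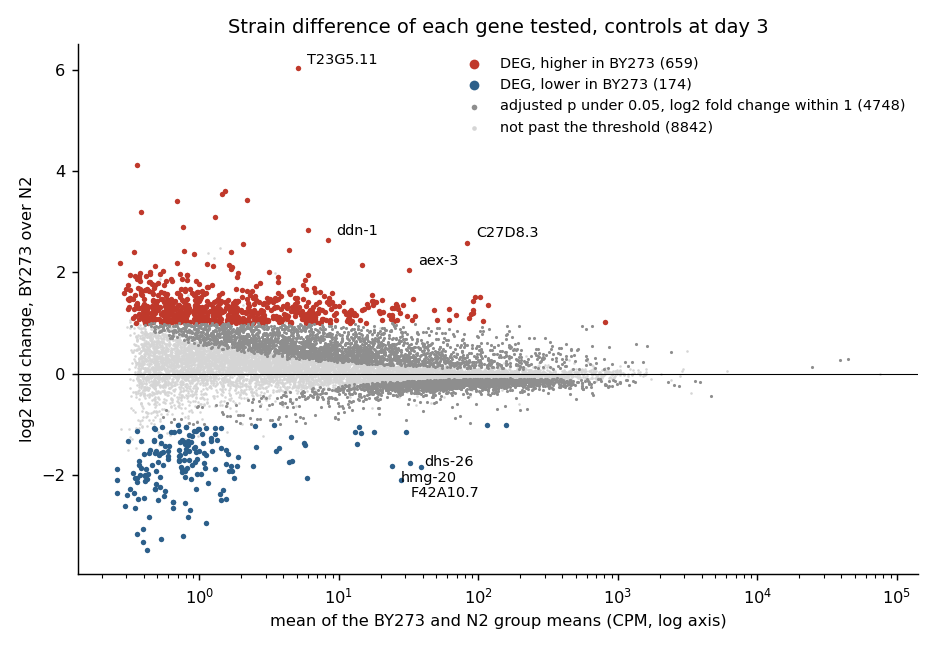
Log2 fold change of BY273 over N2 controls at day 3 (vertical axis) against the mean of the group means in CPM (horizontal log axis), 1 point per gene tested. DEGs are coloured; most of the 659 higher and 174 lower DEGs lie at low levels, and T23G5.11 lies highest.

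The gene with the largest difference was T23G5.11, a non-coding RNA gene on chromosome III (9242530 to 9242726, minus strand, WBcel235), which lies between the end of saeg-2 (9240363 to 9242514) and the start of dat-1 (9242975 to 9246802). It had 10.5, 8.55 and 11.2 CPM in BY273 controls, against 0, 0 and 0.385 CPM in N2 controls. The N2 value above 0 is 13 counts in replicate 3. The log2 fold change was 6.03 ± 0.46 (SE, n = 3 each; edgeR, adjusted p = 2.5e-05). Without N2 replicate 3 the fitted value was 10.99, set by N2 libraries with 0 counts and no measure of size. Against the N2 libraries with 0 counts, taking 3 counts in the shallower of them as the floor, the BY273 mean was at least 82.2-fold higher. This gene lies in the region just before dat-1, whose promoter the transgene carries, and whether reads from the transgene's copy were counted here was not tested.

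Both neighbouring genes were also higher. saeg-2, a gene named as a suppressor of the activated protein kinase EGL-4, had 27.3, 22.03 and 27.8 CPM in BY273, against 7.86, 10.2 and 10.3 CPM in N2 (log2 fold change 1.43 ± 0.12, adjusted p = 4.1e-05). dat-1 itself had 1.76, 1.90 and 1.67 CPM in BY273, against 0.556, 1.18 and 1.07 CPM in N2. All 3 BY273 libraries were above all 3 N2 libraries for both genes. For dat-1 the log2 fold change was 0.91 ± 0.25 (adjusted p = 0.017), and the call was lost without BY273 replicate 1 or 2. cls-3, a CLASP family microtubule-binding protein gene nearby on chromosome III (9186558 to 9191109), was higher too, with 85.7, 78.97 and 87.2 CPM in BY273 and 46.7, 48.4 and 54.7 CPM in N2. Both saeg-2 and cls-3 were named because they separated the strains at day 1 and day 3, these controls included. Their direction and lack of overlap here were thus set by that choice.

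A second group of neighbours lies on chromosome IV. C27D8.3 (12706700 to 12711744, minus strand) and C27D8.2 (12711217 to 12714782, plus strand) overlap at their ends, and since no source used here gives the strand setting of the deposited counts, reads of the shared part cannot be assigned. C27D8.3 had 148, 135 and 144 CPM in BY273, against 15.3, 15.1 and 39.2 CPM in N2, and its log2 fold change was 2.59 ± 0.29 (adjusted p = 0.00018). C27D8.2 had 10.3, 10.2 and 11.2 CPM in BY273, against 0.556, 0.810 and 2.78 CPM in N2. For both genes the groups did not overlap and N2 replicate 3 was the highest N2 library. Without that library the log2 fold changes were 3.20 for C27D8.3 and 3.90 for C27D8.2. The genes that separated all BY273 from all N2 libraries of day 1 and day 3 also included wdfy-3, C27D8.1, idpp-7, T23F6.2 and T23F6.3, which lie between 12653401 and 12724760 on the same chromosome.

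B0511.11 had 22.99, 23.5 and 25.3 CPM in BY273, against 3.85, 3.61 and 8.34 CPM in N2 (log2 fold change 2.14 ± 0.24, adjusted p = 0.0002). aex-3, which encodes an activator of the synaptic vesicle GTPase RAB-3, had 50.4, 45.4 and 57.4 CPM in BY273, against 10.3, 12.04 and 14.5 CPM in N2 (2.05 ± 0.12, adjusted p = 1.0e-05). In the opposite direction, hmg-20, an HMG-box DNA-binding protein gene, had 10.4, 11.4 and 9.76 CPM in BY273, against 38.4, 41.2 and 32.04 CPM in N2 (−1.82 ± 0.10, adjusted p = 1.0e-05). None of these groups overlapped. At day 3 on krill oil B0511.11 differed by 2.66, aex-3 by 1.72 and hmg-20 by −2.33 on the log2 scale. All 3 are among the genes that separated the strains in the day 1 and krill oil libraries. Their common direction there was thus set by that choice and is no separate check. Of the other genes that separated the strains over day 1 and day 3 in both diets, F13H8.8 and aex-5, a prohormone convertase gene, were higher in the BY273 day 3 controls, with log2 fold changes of 1.91 and 1.37. That choice included the day 3 controls, so it set the direction and lack of overlap of F13H8.8 and aex-5 there.

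**Figure D2:**
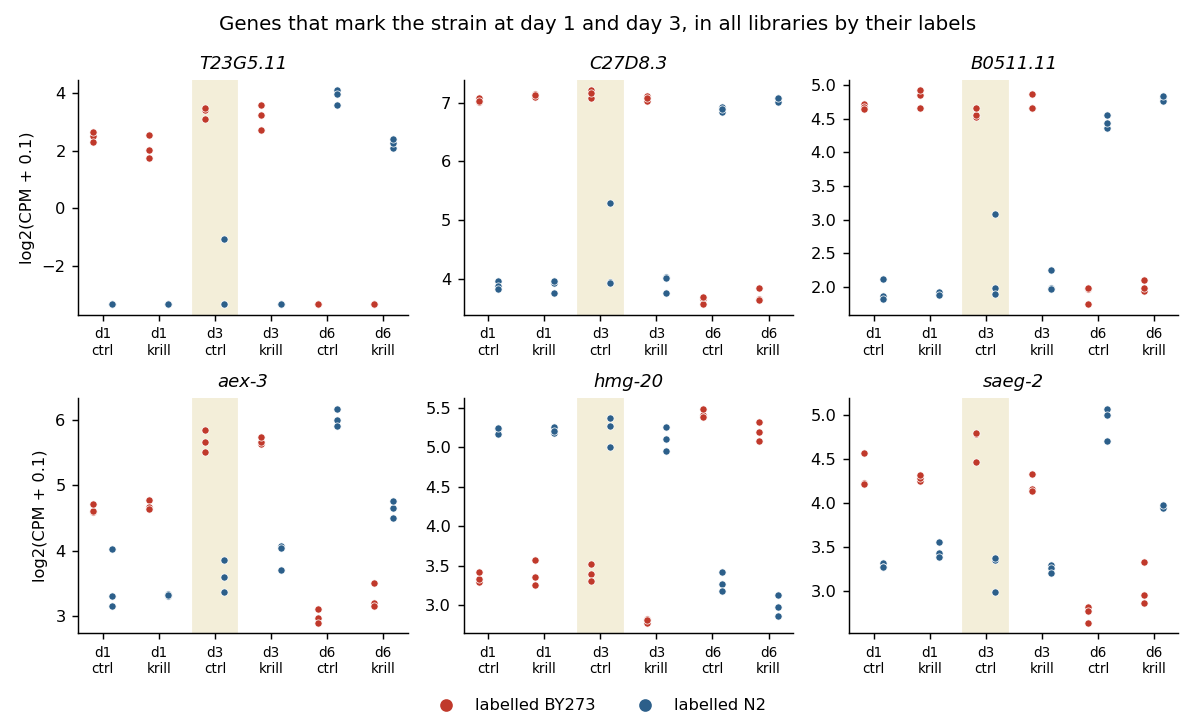
log2(CPM + 0.1) of 6 genes that separate the strains at day 1 and day 3 (vertical axes), in every library by its label (horizontal axes: adult day 1, 3 and 6, controls and krill oil), with the day 3 controls shaded. At day 6 the libraries labelled BY273 stand where N2 stands at day 1 and day 3 and those labelled N2 where BY273 stands, and N2 replicate 3 of the day 3 controls lies above the other N2 libraries for C27D8.3 and B0511.11.

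Among other genes with large rises, ddn-1 had 13.9, 14.03 and 15.04 CPM in BY273, against 2.07, 2.28 and 2.51 CPM in N2 (log2 fold change 2.63 ± 0.10, adjusted p = 1.1e-06). C55C3.3, the carboxylesterase-family gene cest-1.1 and the collagen gene col-121 followed with 1.86, 1.67 and 1.62. Large falls were found for F42A10.7, with 9.60, 14.6 and 7.54 CPM in BY273 and 23.2, 39.0 and 74.6 CPM in N2, and for F59B2.12, with 4.66, 1.57 and 0.509 CPM in BY273 and 9.69, 10.2 and 8.88 CPM in N2. Replicates differed widely within N2 for the first and within BY273 for the second, and the groups still did not overlap. Without BY273 replicate 1 the log2 fold change of F59B2.12 was −3.13, against −2.06 with all libraries.

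Several of the fallen genes are enzymes or secreted proteins. The short-chain dehydrogenase genes dhs-26 and dhs-25 fell by 1.75 and 1.14 on the log2 scale. dhs-26 had 12.102, 18.8 and 13.4 CPM in BY273, against 54.6, 50.1 and 45.7 CPM in N2. The SCP-like extracellular protein gene scl-5 fell by 1.41, T16G1.7 by 1.38, dod-3, a target of the FOXO factor DAF-16, by 1.17, C50B6.7 by 1.15 and the F-box gene fbxa-170 by 1.14. The cuticle mucin gene dpy-6 fell by 1.37, with its highest N2 value, 13.2 CPM, in replicate 3.

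**Figure D3:**
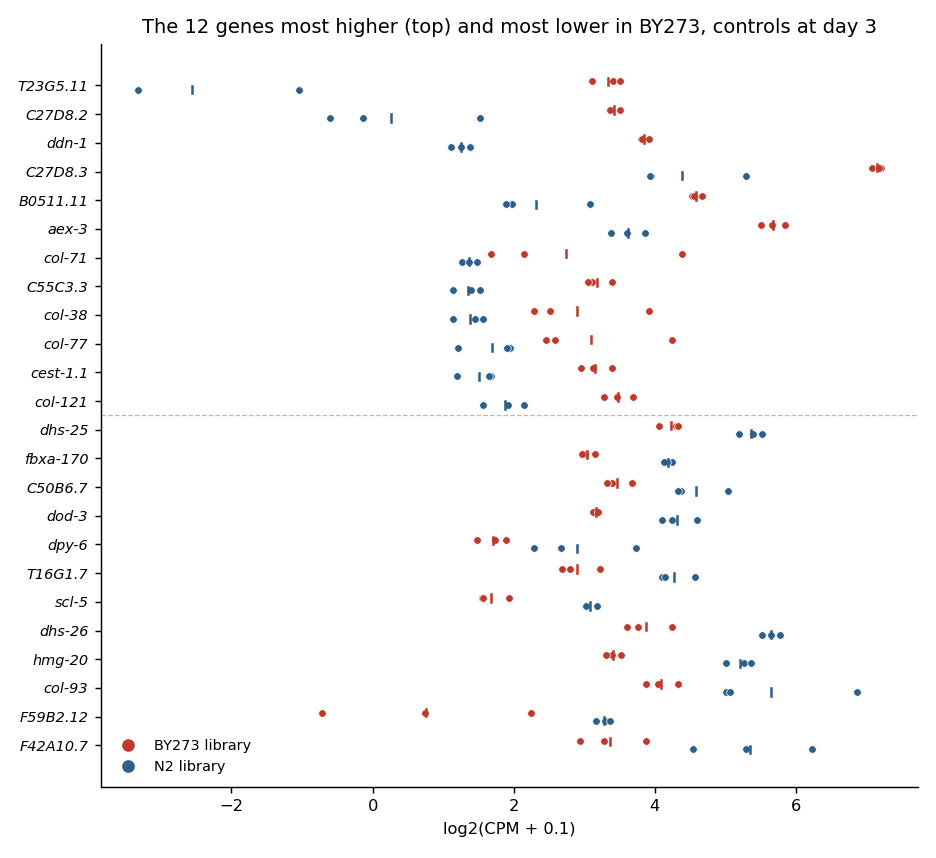
log2(CPM + 0.1) in each library (points) and group mean (vertical ticks) of the 12 genes with the largest rise (above the dashed line) and the 12 with the largest fall in BY273 among DEGs of at least 5 CPM without overlap. BY273 replicate 2 stands above its group for col-71, col-38 and col-77, and N2 replicate 3 above its group for col-93.

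Of the 17 genes of the dopamine system 16 were tested, and at adjusted p under 0.05 4 were higher (25%) and 1 lower (6.25%), against 22.4% and 16.3% of all genes, and the median log2 fold change was 0.23, against 0.05 over all genes. Besides dat-1, the higher members were genes of dopaminergic cell fate and cofactor synthesis. ceh-43, a homeobox factor of dopaminergic fate, had 15.8, 14.7 and 17.5 CPM in BY273, against 9.25, 9.76 and 10.4 CPM in N2 (0.70 ± 0.09, adjusted p = 0.00032). The ETS factor ast-1 had 3.25, 3.21 and 4.07 CPM in BY273, against 1.91, 1.84 and 1.54 CPM in N2 (1.00 ± 0.16, adjusted p = 0.0016). ptps-1, a gene of tetrahydrobiopterin synthesis, was higher by 0.33, a call lost by DESeq2 and without BY273 replicate 1, 2 or 3 or N2 replicate 1. The member that fell was cat-4, the GTP cyclohydrolase that starts cofactor synthesis, with 30.9, 31.9 and 30.3 CPM in BY273 and 32.8, 39.4 and 44.3 CPM in N2. Its log2 fold change was −0.33 ± 0.09 (adjusted p = 0.022), and the call was lost without BY273 replicate 1 or 3. Without BY273 replicate 1 or without BY273 replicate 2, 2 members of the list were higher in place of 4, and without N2 replicate 3 there were 6.

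The other members did not pass the test. The aromatic amino acid decarboxylase bas-1 had a log2 fold change of 0.28 (adjusted p = 0.11) and the vesicular monoamine transporter cat-1 one of 0.56 (adjusted p = 0.13), and both passed without N2 replicate 3. The dopamine receptor genes dop-1, dop-2, dop-3, dop-4, dop-5 and dop-6 had log2 fold changes of 0.17, 0.07, −0.11, 0.06, 0.08 and −0.14, at levels of 0.385 to 2.99 CPM. Their adjusted p-values were 0.655 to 0.837, and the libraries of the strains overlapped for all 6. The channel genes asic-1 and trp-4 had 0.43 and −0.19, and the glial gene swip-10 0.49. The tyrosine hydroxylase gene cat-2 had too few counts to be tested.

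Of 14 worm orthologs of genes of Parkinson's disease, 13 were tested (djr-1.2, a DJ-1 ortholog, had too few counts). Of these 2 were higher (15.4%, against 22.4% of all genes) and 4 lower (30.8%, against 16.3%), with a median of −0.03. The 4 glucocerebrosidase orthologs went apart. gba-4 had 39.4, 34.1 and 38.6 CPM in BY273, against 17.7, 16.17 and 12.7 CPM in N2 (1.28 ± 0.11, adjusted p = 5.0e-05), and gba-3 was higher by 0.74. gba-2 had 2.62, 3.14 and 2.31 CPM in BY273, against 6.71, 5.16 and 7.28 CPM in N2 (−1.24 ± 0.16, adjusted p = 0.00053). gba-1 had 0.23 and passed only without N2 replicate 3. Members that fell by less were unc-26 (synaptojanin, by 0.29), dnj-25 (auxilin, by 0.19) and vps-35, a retromer subunit (by 0.17). For lrk-1 (LRRK2), pdr-1 (parkin), pink-1, djr-1.1, catp-6 (ATP13A2) and rme-8 the log2 fold changes were 0.02, −0.01, −0.04, −0.03, −0.07 and 0.00, with adjusted p-values of 0.195 to 0.941 and standard errors of 0.04 to 0.06.

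Most tested genes of the furrow collagen and molting lists were higher in BY273. The annular furrow collagens DPY-2, DPY-3, DPY-7, DPY-8, DPY-9 and DPY-10 line the circular grooves of the cuticle. Of these 6, 4 were higher (66.7%, against 22.4% of all genes) and 0 lower (against 16.3%), with a list median of 1.14. None was lower at an unadjusted p under 0.05 or by DESeq2. Without N2 replicate 1, 4 were higher and 1 lower. dpy-7 had 14.3, 12.13 and 12.9 CPM in BY273, against 4.09, 5.89 and 4.67 CPM in N2 (1.42 ± 0.13, adjusted p = 6.1e-05). dpy-2, dpy-3 and dpy-10 were higher by 1.42, 1.22 and 1.06, and none of the 4 overlapped between strains. Of 29 tested genes of molting and the larval cuticle, 20 were higher (69.0%) and 2 lower (6.90%), with a median of 0.89. mlt-8, needed for molting, had 14.8, 14.3 and 13.7 CPM in BY273, against 4.96, 5.97 and 6.04 CPM in N2 (1.33 ± 0.09). acn-1, a relative of angiotensin-converting enzyme without a known peptidase activity, and noah-2, a zona pellucida domain protein of the embryonic and larval surface, were higher by 1.31 and 1.28. Members of this list summed to 1018 to 1029 CPM in BY273 and to 653 to 687 CPM in N2. They are also markers of larvae that a plate of egg-laying adults can hold, and the part of such animals in the result was not tested.

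Hedgehog-related and patched-related genes, a family expanded in nematodes and active in epidermis and in molting, followed the same direction. Of 61 tested, 33 were higher (54.1%, against 22.4% of all genes) and 2 lower (3.28%, against 16.3%), with a median of 0.52. The patched-related gene ptr-25 had 30.6, 27.1 and 31.5 CPM in BY273, against 11.8, 11.05 and 9.85 CPM in N2 (1.45 ± 0.09, adjusted p = 1.1e-05). ptr-4 and the warthog gene wrt-1 were higher by 1.42 and 1.32. The groundhog-like gene grl-16 had 9.83, 19.5 and 9.95 CPM in BY273 and 6.47, 5.49 and 3.88 CPM in N2, so that BY273 replicate 2 was about as far above its group as the group was above N2.

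The cuticle collagen family as a whole was mixed. Among those tested, 36 were higher, 18 lower and 58 did not pass, with a median of 0.38 that turned to −0.05 without BY273 replicate 2. Without that library 10 were lower, and without BY273 replicate 3 only 7 were. Among called collagen genes of at least 5 CPM, several with large rises had their highest value in BY273 replicate 2. col-71 had 4.35, 20.9 and 3.10 CPM in BY273, against 2.30, 2.47 and 2.69 CPM in N2, and its log2 fold change of 1.94 (adjusted p = 0.034) was 0.58 without that library. Its call was also lost by DESeq2 and without N2 replicate 1 or 2. For col-38 and col-77, both with their highest value in the same library, the log2 fold changes of 1.74 and 1.69 became 1.02 and 0.84. col-93 stood at 16.4104, 19.9 and 14.6 CPM in BY273, against 32.2, 33.4 and 116.6 CPM in N2, and its −1.85 became −0.97 without N2 replicate 3.

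**Figure D4:**
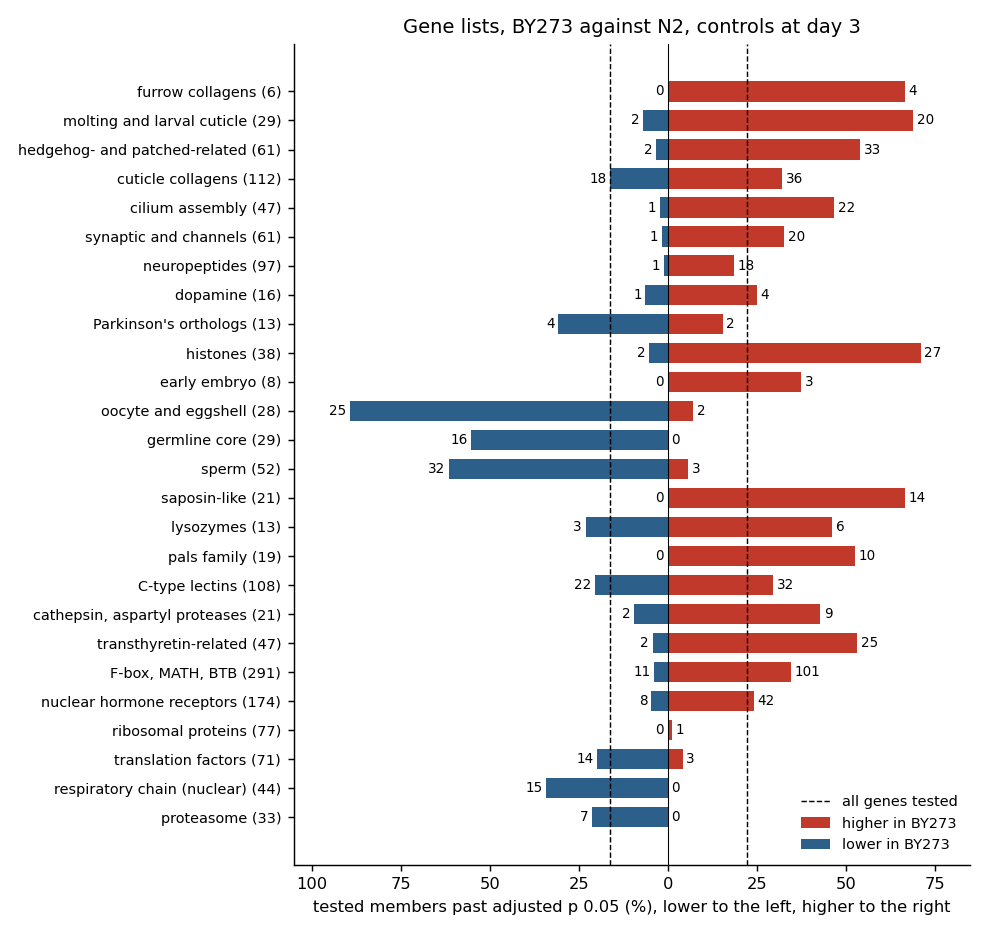
Share of tested members past adjusted p 0.05 (horizontal axis, %) that were lower (left) and higher (right) in BY273 than in N2 controls at day 3, for 26 gene lists with the number tested in parentheses and the counts at the bar ends. Dashed lines mark the shares over all genes, 16.3% lower and 22.4% higher; molting, furrow collagen, histone and saposin-like lists extend far right, and oocyte, sperm and germline lists far left.

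In the edgeR test of the 6 libraries most tested genes of the oocyte, core germline and sperm lists were lower in BY273. Differences were small for the oocyte and core germline lists and larger for the sperm list. For the last 2 lists the counts depended on the fit. Of 28 genes of oocytes and the eggshell, 25 were lower and 2 higher (median −0.21). egg-2, a receptor on the oocyte surface, had 187, 188 and 186 CPM in BY273, against 242, 232 and 236 CPM in N2 (−0.34 ± 0.03, adjusted p = 9.1e-05). The RNA regulators nos-2, lin-41 and mex-3 fell by 0.33, 0.29 and 0.27. Of 29 core germline genes 16 were lower (55.2%) and 0 higher, with a median of −0.14, and 0 were higher also at an unadjusted p under 0.05. By DESeq2 0 were higher and 19 lower. Without BY273 replicate 1 or 2 or N2 replicate 1, 13 were lower, and without BY273 replicate 3, 12. In this list the synaptonemal complex genes syp-2 and syp-1 fell by 0.32 and 0.28.

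The 90 sperm genes, mostly the major sperm protein and sperm-specific families, summed to 179 to 209 CPM in BY273 and to 229 to 249 CPM in N2. Only 52 passed the filter on low counts, which they can pass through N2 alone, and 28 of these were DEGs with log2 fold changes of −2.52 to −1.12, all at a mean of at most 1.88 CPM. At adjusted p under 0.05, 32 of the 52 were lower (61.5%, against 16.3% of all genes) and 3 higher (5.77%, against 22.4%). With only all-zero genes removed, 47 of 88 were lower and 3 higher, and by DESeq2 30 of 88 were lower and 3 higher. Without BY273 replicate 2, 23 of 61 were lower, and without N2 replicate 1 or 2, 23 of 57 or 55. The mean log2 CPM over the tested members was 0.28, −0.20 and −1.15 in BY273, against 0.79, 0.87 and 0.71 in N2, so BY273 replicate 3 was lowest and the strains did not overlap. The major sperm protein genes are near-identical copies whose reads can be split between members. Of the members above 5 CPM that passed the test, spe-15, a myosin VI, and ssp-37 were higher by 0.59 and 0.70, while spe-5 and the vesicle traffic gene spe-39 fell by 0.47 and 0.20.

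Histone genes rose, with 27 of 38 tested higher (71.1%, against 22.4% of all genes) and 2 lower (5.26%, against 16.3%), and a median of 0.29. The higher ones numbered 21 with RLE scaling, 18 without BY273 replicate 1, 20 without N2 replicate 1 and 19 of 56 by DESeq2. The linker histone his-24 had 220, 201 and 215 CPM in BY273, against 106, 117 and 108 CPM in N2 (0.94 ± 0.05, adjusted p = 6.0e-06), and the core histones his-58, his-32 and his-31 were higher by 0.75, 0.73 and 0.55. Core histone genes occur in near-identical copies, so values of single members are uncertain. Of 8 tested genes of early zygotic transcription 3 were higher (37.5%, against 22.4% of all genes) and 0 lower. At an unadjusted p under 0.05, 6 were higher and 0 lower. pes-10, an early embryonic gene, had 9.48, 8.91 and 8.51 CPM in BY273, against 6.79, 6.92 and 7.22 CPM in N2, and its call (0.36 ± 0.09, adjusted p = 0.0095) was lost without BY273 replicate 1 and by DESeq2. By DESeq2 and without BY273 replicate 1, 1 member of the list was higher, and 0 were lower by DESeq2. The yolk protein genes went both ways. vit-6 and vit-2 were higher by 0.29 and 0.28, and vit-3 and vit-4 fell by 0.44 and 0.16, the last a call lost without BY273 replicate 2. These genes also share sequence.

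**Figure D5:**
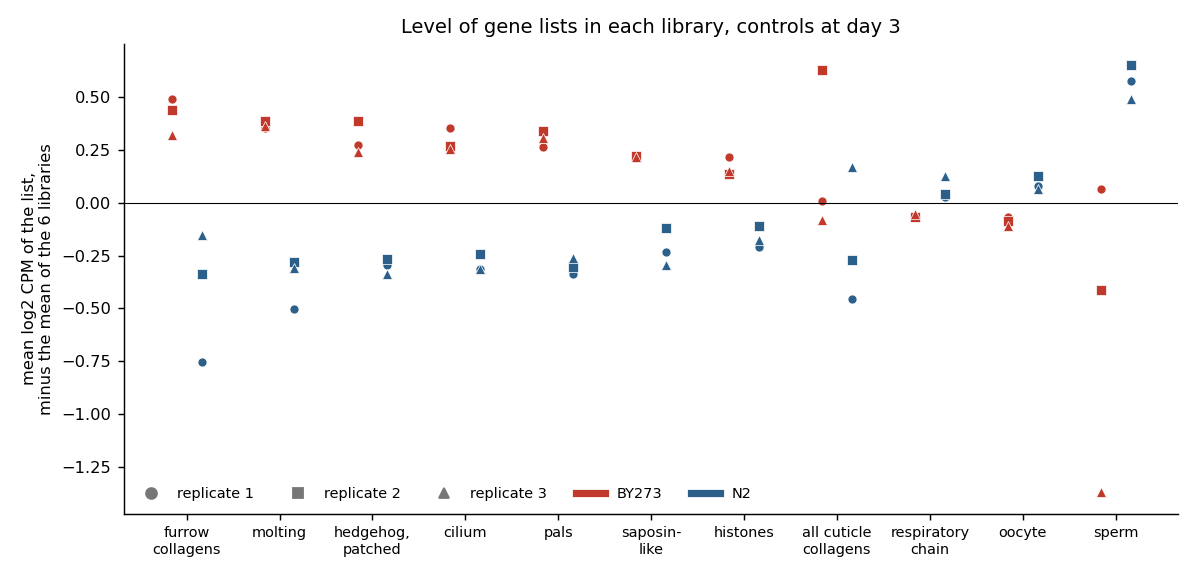
Mean log2 CPM of the tested members of 11 gene lists in each library (vertical axis, minus the mean of the 6 libraries), BY273 left and N2 right, with a symbol per replicate number. Furrow collagen, molting, hedgehog, cilium, pals, saposin-like and histone lists are higher in all 3 BY273 libraries; all cuticle collagens overlap between strains, and in the sperm list BY273 replicate 3 is lowest.

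Among the neuronal lists the cilium genes had the largest share of rises. Cilium assembly genes build the sensory endings of neurons including the dopaminergic ones. Of 47 tested, 22 were higher (46.8%) and 1 lower (2.13%), with a median of 0.67, and 12 were higher by DESeq2. Over all genes 22.4% were higher and 16.3% lower. The mean log2 CPM of the list was 1.21 in BY273 and 0.63 in N2. Among all genes with a mean of 1 to 5 CPM, 30.8% were higher and 2.77% lower. che-3, the heavy chain of the retrograde dynein, had 14.6, 15.1 and 16.3 CPM in BY273, against 7.11, 6.52 and 8.43 CPM in N2 (1.05 ± 0.10, adjusted p = 8.7e-05). klp-11, a kinesin-II motor, had 15.6, 18.4 and 18.4 CPM in BY273, against 8.74, 8.76 and 8.82 CPM in N2. dyf-3, a subunit of the intraflagellar transport machinery, was higher by 1.29, and it also separated the strains in the day 1 and krill oil libraries. ifta-1 was higher by 0.77.

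Of 61 genes of synaptic transmission and neuronal channels 20 were higher (32.8%, against 22.4% of all genes) and 1 lower (median 0.22). In fits that also called fewer genes higher over all, 9 were higher by DESeq2 and 10 to 13 without any 1 of BY273 replicates 1, 2 and 3 or N2 replicate 1. After aex-3, the largest rises among called members of at least 5 CPM were those of slo-1, a potassium channel (0.49, lost without BY273 replicate 2 or N2 replicate 1), egl-30, the G protein Gq (0.48), and the tomosyn gene tom-1 (0.45). egl-30 had 218, 205 and 204 CPM in BY273, against 141, 156 and 152 CPM in N2. Neuropeptide genes had 18 of 97 higher and 1 lower, under the background share of rises, and 10 by DESeq2 or 11 without N2 replicate 1. nlp-59 fell by 0.87, and nlp-51 was higher by 0.62. The epidermal antimicrobial peptides nlp-29 and nlp-28 were higher by 0.65 and 0.61. Genes of tyramine, octopamine and serotonin counted 3 higher (17.6%) and 1 lower (5.88%) of 17, with tbh-1 higher by 0.18 and tdc-1 lower by 0.24 on the log2 scale.

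Among intestinal and defence families the saposin-like genes were mostly higher. Over all genes tested 22.4% were higher and 16.3% lower. Of 21 tested saposin-like genes 14 were higher and 0 lower (median 0.46; 1 lower at an unadjusted p under 0.05, and 0 by DESeq2). spp-3 had 136, 116 and 151 CPM in BY273, against 73.1, 81.2 and 79.5 CPM in N2 (0.78 ± 0.08, adjusted p = 0.00014), and spp-2, spp-15 and spp-18 were higher by 0.90, 0.78 and 0.58, the first a call lost when all 36 libraries were fitted together. Of 13 lysozyme genes 6 were higher (46.2%) and 3 lower (23.1%). lys-7 had 759, 690 and 723 CPM in BY273, against 374, 449 and 313 CPM in N2 (0.94 ± 0.10, adjusted p = 0.00019), and lys-4 was higher by 0.94 as well. Of 21 genes of cathepsin and aspartyl proteases 9 were higher (42.9%) and 2 lower (9.52%), and 15 were higher without N2 replicate 3. The cathepsin B-like gene cpr-9 had 1117, 1016 and 1113 CPM in BY273, against 485, 510 and 608 CPM in N2 (1.02 ± 0.08, adjusted p = 2.5e-05), and asp-5 and asp-17 were higher by 0.88 and 1.29.

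C-type lectin genes were split, with 32 of 108 higher (29.6%, against 22.4% of all genes) and 22 lower (20.4%, against 16.3%). clec-78 had 48.6, 45.2 and 54.9 CPM in BY273, against 18.7, 20.3 and 14.7 CPM in N2 (1.48 ± 0.11, adjusted p = 2.5e-05), and clec-85 was higher by 0.90, while clec-5 fell by 1.05. Of 19 tested members of the pals family, some of which respond to intracellular infection, 10 were higher and 0 lower (median 0.68; 0 lower at an unadjusted p under 0.05, and 8 higher and 0 lower by DESeq2). pals-23 and pals-24 were higher by 0.72 and 0.70. Antimicrobial peptide genes counted 11 higher and 6 lower of 38, and genes of the infection response 9 higher and 3 lower of 26. Among these fipr-1 fell by 0.85, and hpo-6 and the adaptor tir-1 were higher by 0.75 and 0.51.

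Genes of lipid handling moved in both directions, beside 22.4% higher and 16.3% lower over all genes. In fatty acid synthesis and desaturation 6 were higher (26.1%) and 5 lower (21.7%) of 23. fat-2, the desaturase that makes the first polyunsaturated fatty acids, had 490, 460 and 477 CPM in BY273, against 387, 380 and 347 CPM in N2 (0.36 ± 0.05, adjusted p = 0.00049), and fasn-1, the fatty acid synthase, was higher by 0.34. fat-5, a palmitoyl desaturase, fell by 0.38, a call lost when all 36 libraries were fitted together. Of 36 genes of lysosomal lipases and lipid oxidation 9 were higher (25%) and 5 lower (13.9%), and 14 were higher without N2 replicate 3. acox-1.2, a peroxisomal acyl-CoA oxidase, had 20.7, 22.5 and 19.8 CPM in BY273, against 40.2, 38.6 and 39.1 CPM in N2 (−0.90 ± 0.06, adjusted p = 1.7e-05), and the acyl-CoA synthetase acs-2 fell by 0.97. cpt-4, of the carnitine palmitoyltransferase family, and the lipase lipl-7 were higher by 1.00 and 0.76. Lipid-binding protein genes counted 7 higher (43.75%) and 3 lower (18.75%) of 16, with lbp-2 and lbp-1 higher by 0.71 and 0.69 and far-3 lower by 0.80.

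Of the large families of regulators and detoxifying enzymes, some held a share of rises above that of all genes and others one close to it. Of 291 tested F-box, MATH and BTB domain genes 101 were higher (34.7%) and 11 lower (3.78%, median 0.39), with 47 higher by DESeq2 and 67 without BY273 replicate 1. The mean log2 CPM of this list was 1.48 in BY273 and 1.12 in N2. Among all genes with a mean of 1 to 5 CPM, 30.8% were higher and 2.77% lower, shares near those of this list. fbxc-51 had 31.9, 30.02 and 34.3 CPM in BY273, against 14.1, 17.97 and 16.04 CPM in N2 (1.00 ± 0.09). Of 174 nuclear hormone receptors 42 were higher (24.1%, close to the 22.4% of all genes) and 8 lower, with 19 higher by DESeq2 and 27 without BY273 replicate 1. nhr-25, which is needed for molting, and nhr-8 were higher by 0.71 and 0.79. Of 47 transthyretin-related genes 25 were higher (53.2%) and 2 lower (median 0.28), among them ttr-29 and ttr-50 by 1.25 and 0.78. Cytochromes P450 counted 15 higher (24.6%) and 8 lower of 61 (9 higher by DESeq2), and glutathione S-transferases 7 higher (20.6%) and 1 lower of 34 (3 higher by DESeq2 and without BY273 replicate 3 or N2 replicate 2). gst-24 was higher by 1.03 and cyp-13A5 by 0.80, the second a call lost when all 36 libraries were fitted together.

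Lists of genes that all cells use held small differences. The shares that were lower among respiratory chain (34.1%), proteasome (21.2%) and translation genes (19.7%) compare with 16.3% of all genes and with 35.5% of genes that had a mean of at least 50 CPM. Of 77 ribosomal protein genes only rpl-11.2 passed the test, higher by 0.22, and without any 1 of the BY273 libraries or N2 replicate 1 or 2 it did not pass. Of 44 nuclear-encoded genes of the respiratory chain 15 were lower and 0 higher (median −0.12), and this count moved with the scaling: 31 were lower with RLE scaling, 29 by DESeq2 and 23 without N2 replicate 2. None was higher in these fits or at an unadjusted p under 0.05. ucr-2.2, a core subunit of complex III, had 23.7, 25.2 and 23.6 CPM in BY273, against 27.5, 28.8 and 31.9 CPM in N2 (−0.29 ± 0.07, adjusted p = 0.0092). Of 12 mitochondrially encoded genes only COX2 passed, higher by 0.28, and that call was lost by DESeq2 and without any 1 of 4 libraries (all but the third replicates). Of 33 proteasome genes 7 were lower and 0 higher (0 higher also at an unadjusted p under 0.05 and by DESeq2), with 18 lower under RLE scaling, 16 by DESeq2 and 3 or 4 without any 1 BY273 library. Translation factors and tRNA synthetases counted 14 lower and 3 higher of 71, with 8 lower without BY273 replicate 1, and eef-1A.2, a somatic elongation factor gene, was among the higher ones with 0.50.

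Chaperone genes went both ways, 5 higher (26.3%, against 22.4% of all genes) and 4 lower (21.1%, against 16.3%) of 19. Among them the mitochondrial HSP70 hsp-6 was lower by 0.24 on the log2 scale. Of 30 antioxidant genes 4 were higher and 4 lower (13.3% each), and by DESeq2 1 was higher and 7 lower. Genes of autophagy and the lysosome counted 10 higher (34.5%) and 5 lower (17.2%) of 29. The higher ones numbered 6 under RLE scaling and without BY273 replicate 1 or N2 replicate 3, and 5 by DESeq2. epg-2, an adaptor for the clearance of germ granules in embryos, had 153, 149 and 163 CPM in BY273, against 83.2, 86.1 and 83.7 CPM in N2 (0.88 ± 0.04, adjusted p = 5.3e-06), and sqst-1, the p62 receptor, was higher by 0.61. Of 34 muscle genes 9 were higher (26.5%) and 3 lower (8.82%), with 15 higher without N2 replicate 3 and 5 or 4 without BY273 replicate 1 or 3. The troponin gene tnt-2 fell by 0.69, with its highest N2 value, 220 CPM, in replicate 3.

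The remaining lists are described by their counts, beside 22.4% higher and 16.3% lower over all genes. UDP-glucuronosyltransferase genes counted 13 higher (22.4%) and 5 lower (8.62%) of 58, and insulin-like peptide genes 4 higher (17.4%) and 1 lower (4.35%) of 23. Small heat shock and inducible HSP70 genes counted 5 higher (38.5%) and 1 lower (7.69%) of 13, with hsp-17 higher by 0.53. Genes of iron and heme handling counted 3 higher (21.4%) and 2 lower (14.3%) of 14, with ftn-2, a ferritin, higher by 0.26. Those of the propionate shunt and methionine cycle counted 4 higher and 4 lower of 25 (16% each). Of 21 vacuolar ATPase genes 1 was higher (4.76%) and 2 were lower (9.52%), and vha-18 fell by 0.23. Of 1316 chemoreceptor genes, which act in few sensory neurons, only 37 passed the filter, and 7 were higher (18.9%), 1 of them by DESeq2.

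Among regulators that the study names, ceh-48, nhr-6 and elt-3 were higher in BY273. ceh-48, a homeobox gene of the neuronal CUT family, had 4.54, 3.73 and 3.61 CPM in BY273, against 2.10, 1.804 and 2.16 CPM in N2 (0.97 ± 0.15, adjusted p = 0.0013). nhr-6 and the epidermal GATA factor elt-3 had log2 fold changes of 0.55 and 0.46. cnnm-3, cebp-1 and hlh-30, the worm TFEB, passed with 0.33, 0.33 and 0.18, and skn-1, the worm Nrf, and tra-1, the sex determination factor, passed with −0.11 and −0.16. Each of these 5 calls was lost without at least 1 library, those of cebp-1, hlh-30 and cnnm-3 also by DESeq2, and those of cebp-1 and hlh-30 under RLE scaling. The libraries of the strains overlapped for cebp-1. lmd-3, hmg-5, jnk-1, egl-8, unc-10 and efl-1 did not pass, with log2 fold changes of −0.08, −0.10, 0.15, 0.13, 0.12 and −0.10, although lmd-3, egl-8 and efl-1 passed without N2 replicate 3, lmd-3 and efl-1 also by DESeq2 and under RLE scaling, and efl-1 with ribosomal RNA genes removed. Of the mitochondrial genes, COX1 had 0.06 and ND2 −0.23, and neither passed.

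The strain difference was then set beside that at day 3 on krill oil and at day 1, in libraries that the day 3 controls do not share. On krill oil at day 3, 143 genes were higher (0.976%) and 437 lower (2.98%) in BY273 as DEGs, of 14646 tested. At any fold change 7.18% were higher and 6.49% lower. The 174 genes lower in the controls were largely lower there too: of 152 tested, 115 (75.7%) were lower and 6 higher at adjusted p under 0.05, where 5.55% of all genes tested in both were lower. Of the 659 higher genes 603 were tested there, and 18.9% were higher and 4.64% lower, where 7.41% of all genes tested in both were higher. At day 1, 131 genes were higher (0.930%) and 217 lower (1.54%) among controls as DEGs, and 3.56% higher and 3.31% lower at any fold change. There 86 of 162 tested lower genes (53.1%) were lower again and 0 were higher, while 55 (11.6%) of 475 tested higher genes were higher and 57 (12%) lower.

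On krill oil at day 3, 47 of 61 tested sperm genes were lower (median −2.32), 59 of 140 collagens were lower and 13 higher, and of the 28 oocyte genes 2 were higher and 0 lower (3 higher and 3 lower at an unadjusted p under 0.05). The furrow collagens were higher in 4 of 6 on krill oil with a median of 0.32. At day 1 their median among controls was −0.87, with 1 higher.

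The test of the difference between diets at day 3 found 471 of 15299 genes, 64 (0.418%) with a higher strain difference on krill oil than in controls and 407 (2.66%) with a lower one. Without BY273 replicate 1 on krill oil the lower ones numbered 267, and without N2 control replicate 3 there were 63 higher and 346 lower. Of the cuticle collagens 51 of 140 passed toward lower and 5 toward higher at any size of difference, of the molting genes 12 of 29 toward lower and 0 toward higher, and of the oocyte genes 12 of 28 toward higher and 0 toward lower, against 6.2% of all genes toward lower and 3.40% toward higher. For mlt-8 the strain difference was lower by 1.44 on the log2 scale, that is −0.12 on krill oil against 1.33 in controls. mlt-8 was named for its rise in the controls, so the direction of this difference is partly set by that choice. For the strain marks C27D8.3, aex-3 and saeg-2 the test of the difference between diets did not pass (adjusted p = 0.36, 0.23 and 0.073), and hmg-20 passed with −0.51 (adjusted p = 0.048).

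The same test between ages in controls, day 3 minus day 1, found 735 of 15027 genes, 656 (4.37%) with a higher and 79 (0.526%) with a lower strain difference at day 3. The 79 became 47 without BY273 replicate 3 of day 3 and 49 without BY273 replicate 2 of day 1, and without N2 replicate 3 of day 3 there were 569 higher and 59 lower. Of the molting genes 15 of 29 passed toward higher and 2 toward lower, of the hedgehog-related and patched-related genes 28 of 63 toward higher and 2 toward lower, and of the furrow collagens 4 of 6 toward higher. Of the oocyte genes 21 of 28 and of the respiratory chain genes 27 of 44 passed toward lower, with 7.96% of all genes toward higher and 7.21% toward lower. The test between day 6 and day 3 in controls found 5351 of 15308 genes (35%), but it joins libraries whose day 6 labels go against the strain-marking genes, and no direction is drawn from it.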

How the data were processed

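Whole worms were sequenced, and the authors deposited raw counts per gene for each library. Per the labels and the study's methods, reads were aligned with STAR 2.7.10a to WBcel235 with annotation release 96, and duplicates were removed by unique molecular identifiers before counting. The study's methods name STAR gene counts for its prediction of biological age. For the deposited counts, the counting program and its strand setting are not given in the sources used here.

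Identifiers were matched to annotation release 115 for names and positions (46603 of 46778 found, 43818 with a symbol). CPM (counts scaled to a common library size) use TMM-scaled library sizes for single genes and, over all 36 libraries, for strain positions. Raw totals were used for sums over lists and for the floor of T23G5.11. The 6 libraries were tested with edgeR 4.0.16 (R 4.3.3): filterByExpr, TMM, quasi-likelihood test, Benjamini-Hochberg adjustment over all genes. DEGs combine an adjusted p under 0.05 with a log2 fold change beyond 1 in either direction, and list members were counted at adjusted p under 0.05 at any fold change. SE is the absolute log2 fold change over the square root of F. Interactions of strain with diet and with age were fitted the same way on 12 libraries each. DESeq2 1.42.0 was an alternative, besides RLE size factors, no filter on low counts, all 36 libraries in 1 fit, ribosomal RNA genes removed, a replicate block and each library left out in turn.

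Named genes are, among DEGs of at least 5 CPM whose strains do not overlap, the 12 highest and the 12 lowest fold changes, up to 4 members per list by size of change among called members of at least 5 CPM, all members of the dopamine and Parkinson lists, and regulators the study names. The rule's genes separating all 18 libraries per strain do not exist, so genes separating the strains at day 1 and day 3 were added after their values were seen. The comparison, the members and the 48 gene lists were chosen with earlier results of these data known, and 11 list names found no match. Replicates were compared with a chi-square test of their counts: the statistic per degree of freedom was 3.19 to 21.5, so none was a copy of another. Deviations over genes did not go together in same-numbered libraries (correlations of 0.02, −0.05 and −0.02), so the numbers were not taken as pairs. Ribosomal RNA shares did match by number: 6.81%, 7.07% and 9.78% in BY273 against 6.81%, 7.12% and 9.70% in N2. Whether same-numbered libraries were prepared together was not tested. On simulated data for this comparison (14423 genes), edgeR recovered 88% of 1.5-fold, 98% of 2-fold and 100% of 4-fold changes, and 4.59% of its calls were unchanged genes. There only 100, 50 and 50 genes were changed, all of at least 5 CPM and as many raised as lowered. In the data 38.7% of genes were called and most DEGs lay under 5 CPM, so these rates do not measure the reported calls.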

Additional observations from a re-analysis of the deposited data

Results flagged for a closer look

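Differences of the strain effect between diets or ages are given here for the named genes that passed the interaction test (edgeR, adjusted p under 0.05 and a difference beyond 1 on the log2 scale), as the log2 fold change of BY273 over N2 in the later or krill oil libraries minus that in the other ones. They share the day 3 controls, so the diet and age values of 1 gene are not independent. Most of these genes were also named for their fold change in the day 3 controls, which enters each difference. The direction of the differences below is thus partly set by that choice and is no separate result. In all, 471 genes differed between diets at day 3, 735 between day 3 and day 1 and 5351 between the libraries labelled day 6 and day 3, where the day 6 labels go against the strain-marking genes.

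Between krill oil and control at day 3 the strain difference was lower on krill oil for the collagen genes col-71 (−3.45), col-77 (−3.35), col-38 (−2.93), col-121 (−1.22), dpy-7 (−1.05) and dpy-2 (−1.01). It was also lower for the molting and hedgehog-related genes grl-16 (−2.71), mlt-8 (−1.44), ptr-4 (−1.37), acn-1 (−1.22) and ptr-25 (−1.01), and for ddn-1 (−2.55), gba-4 (−1.65), gst-24 (−1.11), clec-78 (−1.05) and asp-17 (−1.02). It was higher for F42A10.7 (2.86), dod-3 (2.57), scl-5 (1.50), C50B6.7 (1.50), dhs-26 (1.43), clec-5 (1.26) and T16G1.7 (1.18).

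Between day 3 and day 1 controls the strain difference was higher at day 3 for the cuticle and molting genes wrt-1 (3.64), ptr-4 (2.90), col-121 (2.82), dpy-7 (2.69), dpy-2 (2.66), ptr-25 (2.56), acn-1 (2.53), dpy-3 (2.44), mlt-8 (2.21), grl-16 (2.18), noah-2 (2.10) and dpy-10 (1.55). The same held for clec-78 (2.57), cpt-4 (2.43) and ddn-1 (1.24). It was lower for col-93 (−2.52), dhs-26 (−2.44), dpy-6 (−2.04), F42A10.7 (−1.77), scl-5 (−1.51), dhs-25 (−1.04) and C50B6.7 (−1.01).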

How the results depend on the processing

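More DEGs were higher than lower in BY273 than in N2 controls at day 3 under every alternative tried. With only all-zero genes removed 324 genes were lower in place of 174. At any fold change DESeq2 gave 1969 higher genes in place of 3226. The TMM and RLE scalings moved the median of all genes by less than 0.1 on the log2 scale. Leaving out 1 library at a time gave 599 to 725 higher and 141 to 224 lower DEGs, and 2368 to 3058 higher and 1462 to 2995 lower genes at any fold change. The test between diets at day 3 gave 731 genes (101 higher, 630 lower) with only all-zero genes removed, and 267 to 528 lower genes when 1 library was left out. The test of day 3 minus day 1 gave 148 lower genes with only all-zero genes removed and 47 to 97 when 1 library was left out. The test of day 6 minus day 3, by the labels, gave 960 higher genes by DESeq2 and 762 with RLE size factors, in place of 478. Since the day 6 labels go against the strain-marking genes, no direction between the strains is drawn from these counts. The cause of these shifts was not tested. With a replicate block 640 DEGs were higher and 166 lower (806 in all), and the block gave 449, 683 and 5347 genes in the tests between diets, between day 3 and day 1 and between day 6 and day 3, although the numbers did not pair the libraries. Of 225 named genes tested, 199 passed. The test was lost for 20, 18 and 18 of them without BY273 replicate 1, 2 or 3, for 12, 10 and 3 without N2 replicate 1, 2 or 3, for 11 by DESeq2, for 15 with all 36 libraries in 1 fit and for 4 with the block, and no named gene changed direction with its call. Depth limits the genes under 1 CPM, which hold 381 of the 833 DEGs.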

Other observations

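The share of DEGs is given here by chromosome, with no test. Chromosome IV had 57 lower DEGs among 2367 tested genes (2.41%), against 10 of 2085 (0.480%) on the X chromosome and 1.21% of all genes. For higher DEGs chromosome V had the largest share, 166 of 2811 (5.91%), beside 4.99% on chromosomes II and X and 4.57% of all genes. Of 440 pseudogenes tested, 92 were higher (20.9%) and 12 lower (2.73%) at any fold change, against 22.4% and 16.3% of all genes.

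Of the 205 genes that separated the strains in the other day 1 and day 3 libraries, the order of the group means was turned round at day 6 for 156 in the controls and for 191 on krill oil.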
